A study of Mus musculus with 6 samples.

Results

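Genes of the elastic fibre and the artery wall are described here in mouse spinal cord samples: Eln, Fbln5, Emilin1, Fbn1, Mfap4, Mfap5, Ltbp2, Lox, Loxl1 and Sost. They make up 10 of the 35275 genes in the files, and all 10 were found by symbol and had reads in each of the 6 libraries. The set was chosen by the high levels of Eln and Sost in 1 of the 3 groups, NG, so the values that set NG apart are given as a description, with no test. The libraries fall into 3 groups of 2. TG is labelled as mechanically injured with 75% hydrogen, NG as mechanically injured, and IG as control with no treatment. All 3 share the ICR stock, postnatal day 3, spinal cord as tissue, neurons as source, and culture in DMEM. The labels name no separate animals or cultures behind the 2 libraries of a group, so a p-value measures the spread between libraries, which may be technical.

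Elastic fibres let arteries, lung and skin recoil. Their core is elastin, which smooth muscle cells and fibroblasts secrete as a soluble monomer, deposit on a scaffold of fibrillin microfibrils with the help of fibulins, and join into an insoluble polymer through lysyl oxidases. Production is high around birth, when large arteries and other elastic tissues grow, and low in adults. Sclerostin, the product of Sost, is a secreted inhibitor of Wnt signalling that is best known from osteocytes and is also made in the wall of the aorta.

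Promoter windows of 300 bases around the transcription start were at hand for 5 of the 10 genes in RefSeq (build GRCm38.p6), and 3 are shown because they belong to members with a large, a middle and a small difference between NG and IG. All 3 lie on the minus strand, 5′ to 3′, at chr11:101966966-101967265 for Sost, chr12:84876442-84876741 for Ltbp2 and chr2:125506389-125506688 for Fbn1. Capitals mark GGGCGG (bound by Sp1) and CAGAC (bound by SMAD proteins), searched on both strands.
Sost: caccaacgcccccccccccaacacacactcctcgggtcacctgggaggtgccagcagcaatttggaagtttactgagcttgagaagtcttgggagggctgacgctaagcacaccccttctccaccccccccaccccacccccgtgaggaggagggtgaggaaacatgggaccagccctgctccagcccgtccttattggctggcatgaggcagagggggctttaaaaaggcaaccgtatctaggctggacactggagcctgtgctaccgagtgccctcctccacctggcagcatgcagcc
Ltbp2: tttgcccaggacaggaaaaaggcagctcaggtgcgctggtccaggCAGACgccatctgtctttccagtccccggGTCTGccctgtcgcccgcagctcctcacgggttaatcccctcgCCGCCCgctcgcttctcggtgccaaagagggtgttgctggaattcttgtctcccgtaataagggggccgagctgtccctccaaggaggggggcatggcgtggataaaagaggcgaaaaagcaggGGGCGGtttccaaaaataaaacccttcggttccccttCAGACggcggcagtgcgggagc
Fbn1: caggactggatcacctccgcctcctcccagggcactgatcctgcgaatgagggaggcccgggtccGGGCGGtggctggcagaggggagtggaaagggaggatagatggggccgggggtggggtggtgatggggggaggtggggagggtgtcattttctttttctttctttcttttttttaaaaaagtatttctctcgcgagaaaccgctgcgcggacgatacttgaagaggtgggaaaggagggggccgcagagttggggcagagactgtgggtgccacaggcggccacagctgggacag

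Among the 6 windows of these 5 genes (Fbln5 has 2), 3 held GGGCGG and 4 held CAGAC, against 35.7% and 49.6% of all 32851 windows in the table. None of the 6 held a CArG box, the site of serum response factor at smooth muscle genes, which stood in 1.63% of all windows. None held TATAAA (13.6% of all) or CATTCC, the TEAD site (14.7%). The Sost window held none of the 5 motifs. A match or its absence is a description of these letters and says nothing of binding.

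Between 15749447 and 23911141 reads per library were assigned to genes. Levels below are normalised reads, that is, reads divided by a size factor per library, and within a group the library with more reads, A, is given before the other, B. The label of neurons was checked with 7 neuronal markers, which had reads throughout: their summed level was 61711 to 63817 in TG, 29677 to 31555 in NG and 47266 to 48675 in IG. Markers of other tissues were present as well. Those of smooth muscle (8 genes) summed to 2261 to 2273 in TG, 24556 to 25000 in NG and 2425 to 2543 in IG, and those of fibroblasts (8 genes) to 18203 to 18627 in TG, 115904 to 116914 in NG and 39663 to 40154 in IG. In bulk RNA, fewer cells of a type and less RNA per cell cannot be told apart.

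Eln, one of the genes that the set was chosen by, had the highest level of the 10 per kilobase of exon by the mean of each group. In normalised reads it (chromosome 5, 134702593 to 134747323, mm10) stood at 2340 and 2711 normalised reads in TG, 87449 and 128022 in NG, and 2461 and 3145 in IG. Both NG libraries lay far above the other 4, and the values of TG and IG overlapped. The mean in NG was 38.4 times that in IG and 42.7 times that in TG. Its share of all assigned reads was 0.0122% and 0.0142% in TG, 0.448% and 0.667% in NG, and 0.0135% and 0.0172% in IG. By normalised reads it ranked as gene 1506 and 1233 in TG, 13 and 10 in NG, and 1303 and 933 in IG.

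The other genes of the elastin core differed less. Fbln5 (chromosome 12, 101746565 to 101819055), whose product fibulin-5 tethers elastin to microfibrils and cells, stood at 286 and 273 in TG, 2123 and 2017 in NG, and 394 and 363 in IG. The 3 groups did not overlap, with NG highest and TG lowest. Emilin1 (chromosome 5, 30913402 to 30921277), a glycoprotein gene of the border between elastin and microfibrils, stood at 88.5 and 111 in TG, 477 and 683 in NG, and 163 and 177 in IG. NG was again highest, and its 2 libraries lay further apart than those of the other groups.

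**Figure D1:**
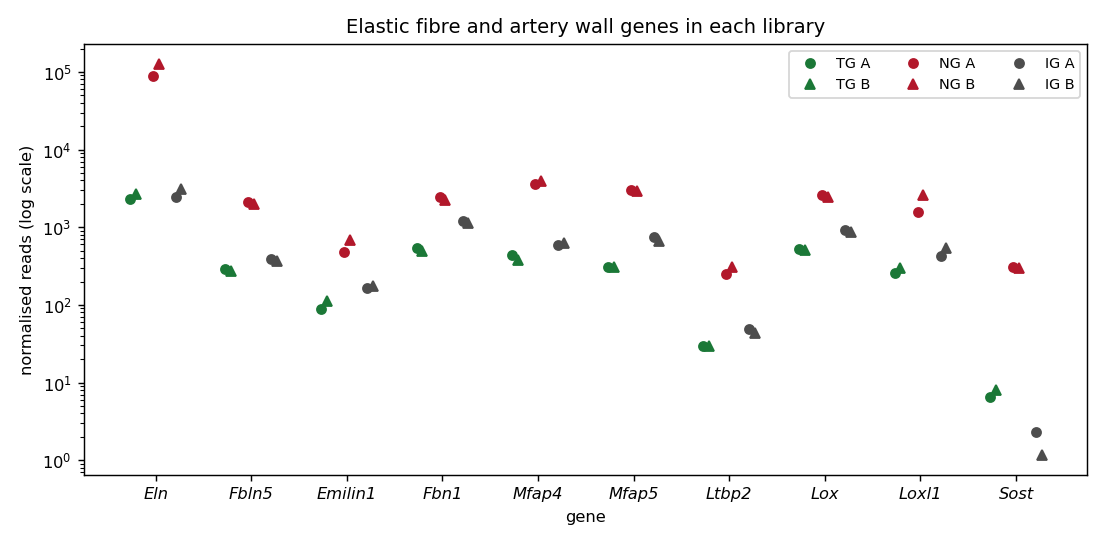
Normalised reads (log scale) of the 10 genes in each library, by group from left to right TG, NG and IG, with circles for library A and triangles for library B. Both NG libraries are the highest for every gene, Eln reaches 87449 and 128022 in NG, and Sost is near the floor in TG and IG.

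Among the microfibril genes, Fbn1 (chromosome 2, 125300594 to 125507993) encodes fibrillin-1, the main building block of microfibrils. It stood at 545 and 491 in TG, 2465 and 2216 in NG, and 1220 and 1146 in IG, the smallest difference between NG and IG in the set (1.98 times). Mfap4 (chromosome 11, 61485431 to 61488900), a fibrinogen-related glycoprotein gene of elastic fibres, stood at 436 and 383 in TG, 3628 and 3914 in NG, and 585 and 622 in IG. For both genes the order was NG, then IG, then TG, with no overlap.

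Mfap5 (chromosome 6, 122505845 to 122529290), the gene of a small microfibril-associated glycoprotein, stood at 307 and 306 in TG, 3031 and 2958 in NG, and 742 and 664 in IG. Ltbp2 (chromosome 12, 84783212 to 84876532), of the family of latent TGF-beta binding proteins, was low throughout, with 29.8 and 29.7 in TG, 253 and 306 in NG, and 49.5 and 44.1 in IG. NG was highest for both, at 4.26 and 5.97 times the mean in IG.

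The lysyl oxidases are copper enzymes that cross-link elastin and collagen. Lox (chromosome 18, 52516067 to 52529867) stood at 527 and 502 in TG, 2602 and 2476 in NG, and 916 and 870 in IG. Loxl1 (chromosome 9, 58287738 to 58313186), which acts chiefly on elastin, stood at 259 and 299 in TG, 1583 and 2578 in NG, and 427 and 546 in IG. The 2 enzymes had the same order of groups. The ratio of Lox to Loxl1, each per kilobase of exon, was 1.40 and 1.16 in TG, 1.13 and 0.663 in NG, and 1.48 and 1.10 in IG, so its ranges did not separate TG from IG.

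Sost (chromosome 11, 101962458 to 101967015) had 8 and 7 reads in TG, 314 and 245 in NG, and 3 and 1 in IG. Normalised, this was 6.44 and 7.99 in TG, 305 and 295 in NG, and 2.32 and 1.16 in IG. Over the reads of both libraries, the level in NG was 162 times that in IG and 42.5 times that in TG. Sost was chosen for its level in NG, so these values and its rank are a description. Only 3 of the 24511 genes with a read had a higher log2 fold change in NG over IG than Sost, while Eln took place 23.

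On the log2 scale, with 1 added to each value, the 10 differences between NG and IG ran from 0.98 for Fbn1 to 6.81 for Sost, with a median of 2.27, beside a median of 0.00 over all genes. Those between TG and NG ran from -5.39 for Eln to -2.17 for Fbn1, with a median of -3.04, beside 0.00 over all genes. The 2 comparisons share the NG libraries. In all 10 genes both NG libraries were above the 4 others, as they were for 27.6% of all genes tested. Since the set was chosen by this contrast, nothing is read from that count.

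Per kilobase of exon, Eln was the highest of the 10 in each group, at 312 ± 32.4 in TG, 13304 ± 3543 in NG and 346 ± 59.7 in IG (mean ± SD, n = 2 libraries). Mfap4 was next, at 213 ± 19.4 in TG, 1962 ± 105 in NG and 314 ± 13.7 in IG. In IG these 2 levels did not differ beyond their spread, while in NG and TG they did. Ltbp2 and Sost were lowest in TG and IG. In NG, Ltbp2 was lowest at 34.1 ± 4.61, and Sost, at a mean of 145, lay between Fbn1 at 193 ± 14.5 and Emilin1 at 118 ± 29.5, a neighbour from which it did not differ beyond the spread.

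The make-up of the set is described by shares and ratios. Eln held 32.1% and 36.2% of the summed level per kilobase in TG, 70.4% and 76.1% in NG, and 22.8% and 27.1% in IG. The ratio of Eln to Fbn1 per kilobase was 6.44 and 8.28 in TG, 53.1 and 86.5 in NG, and 3.02 and 4.11 in IG. Without Eln, the summed level per kilobase was 590 to 612 in TG, 4543 to 4954 in NG and 1030 to 1045 in IG.

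The rule that chose the genes did not use the comparison of TG with IG, so it was tested. Earlier results of these data were known when genes and tests were chosen. With limma on all 24511 genes with a read, and p-values adjusted over all of them, 6 of the 10 were lower in TG, 1 was higher and 3 did not pass. Of all genes tested, 7.18% were called lower in TG and 4.16% higher. The median log2 fold change of the 10 was -0.71, beside 0.01 over all genes. Both TG libraries were below both IG libraries for 8 of the 10, all but Eln and Sost, and for 24.1% of all genes.

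The microfibril genes Fbn1 and Mfap5 fell most in TG. Fbn1 averaged 518 ± 38.2 in TG and 1183 ± 52.3 in IG, a log2 difference of -1.19 with an SE of 0.09 (limma adjusted p = 0.00017). Mfap5 averaged 306 ± 0.516 in TG and 703 ± 55.2 in IG, a log2 difference of -1.19 with an SE of 0.09 (limma adjusted p = 0.00012). Mfap4 fell by 0.56 on the log2 scale (SE 0.09, limma adjusted p = 0.0069). Lox averaged 514 ± 17.6 in TG and 893 ± 32.4 in IG, a log2 difference of -0.79 with an SE of 0.08 (limma adjusted p = 0.00057).

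Fbln5 and Emilin1 also fell, with log2 fold changes of -0.44 (limma adjusted p = 0.018) and -0.78 (limma adjusted p = 0.035). Loxl1 at -0.79 and Ltbp2 at -0.64 did not pass (limma adjusted p = 0.052 and 0.08). For Eln the difference was -0.14 with a 95% interval of -0.56 to 0.28 (limma adjusted p = 0.68), which leaves room for a lower or a slightly higher level in TG. Sost rose, at 1.61 with a 95% interval of 0.79 to 2.43 (limma adjusted p = 0.024), on 15 reads in TG and 4 in IG. The ratio of those reads, scaled for depth, was 3.81 with an exact 95% counting interval of 1.21 to 15.8. Such an interval covers counting error only. The authors' deposited table gave an adjusted p of 0.52 for Sost.

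The calls rest on few libraries. No call of a member in TG against IG held in each of the 6 fits with 1 library left out. In those fits the log2 fold change ran from -1.28 to -1.12 for Mfap5, -1.27 to -1.12 for Fbn1 and -0.83 to -0.76 for Lox. It ran from -0.50 to -0.38 for Fbln5, -0.93 to -0.62 for Emilin1, -0.65 to -0.46 for Mfap4 and 1.30 to 1.89 for Sost. The authors' deposited table called 7 of the 10, all lower in TG: Loxl1 and the 6 above. Over all genes it called 1585 lower and 1057 higher, with a finite fold change for 20811. Fibroblast markers moved alike between TG and IG: all 8 were called lower in TG, with a median of -1.12. Smooth muscle markers did not: of 8, 2 were called higher and 2 lower, with a median of 0.26. Of all genes tested, 7.18% were called lower and 4.16% higher. The part of either cell type in the result was not tested.

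**Figure D2:**
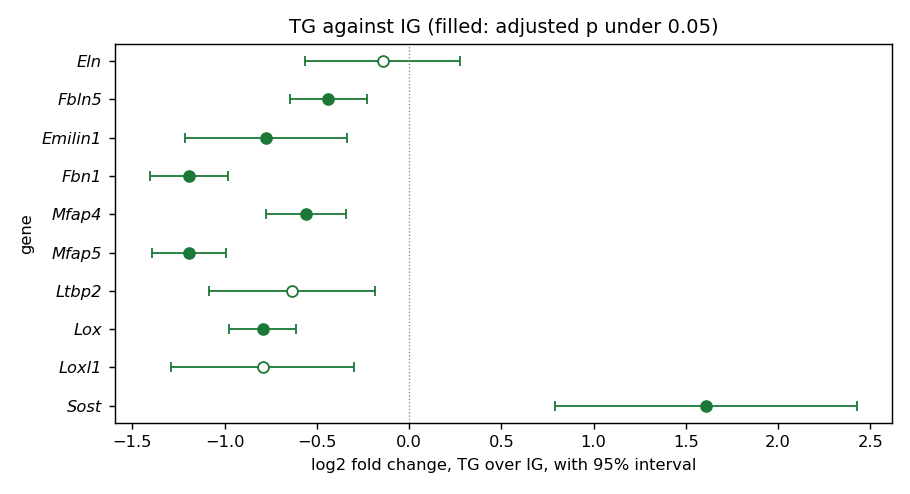
Log2 fold change of TG over IG for each gene, with its 95% interval from limma (6 libraries in the fit); filled points passed an adjusted p under 0.05. Fbn1 and Mfap5, both at -1.19, are farthest to the left, the interval of Eln spans 0, and Sost at 1.61 lies to the right.

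Markers of the cells known to make elastic fibres also differed between groups. In NG, as against IG, the 8 smooth muscle markers were all called higher, with a median log2 fold change of 3.34, and 7 of 8 fibroblast markers were called higher and 1, Pdgfra, lower (median 1.58). Of all genes tested, 19.7% were called higher in NG and 20.4% lower. Acta2, the actin of smooth muscle, averaged 10044 ± 252 in NG and 281 ± 13.3 in IG, a log2 difference of 5.16. Tagln, a smooth muscle calponin-related gene, averaged 6983 ± 144 in NG and 961 ± 42.0 in IG. The collagen genes Col1a1 and Col3a1, at 1.74 and 1.44, were the highest fibroblast markers by level.

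The level of each gene was then expressed relative to the median of either marker list, in each library. Relative to fibroblast markers, the group means of all 10 were higher in NG than in IG. The differences ran from 0.03 (Fbn1) to 5.86 (Sost) on the log2 scale, with a median of 1.32. For Fbn1 the libraries overlapped, at -1.05 and -1.10 in NG and -1.12 and -1.09 in IG. Relative to smooth muscle markers, 8 of the 10 were lower in NG than in IG, and 2 were higher, Eln at 1.27 and Sost at 2.83. The median of the 10 relative to smooth muscle markers was -1.71. Fbn1 thus differed between NG and IG by about as much as the median level of the fibroblast markers. The measure matters here. The median of the markers' own log2 fold changes was 1.58, and Fbn1 at 0.98 and Lox at 1.51 lay below it. Eln and Sost were chosen for their levels in NG, so nothing is read from their place above either median. The single smooth muscle markers Cnn1 and Myh11, at 6.15 and 5.43 in NG over IG, lay above Eln at 5.25. Acta2, at 5.16, and the median of the 8 smooth muscle markers, at 3.34, lay below Eln. Between TG and IG, the group means of 8 of the 10 were higher relative to fibroblast markers (median 0.22), all but Fbn1 and Mfap5. For Emilin1 and Loxl1 among them, the libraries of TG and IG overlapped. Relative to smooth muscle markers, 9 were lower (median -1.04), all but Sost. These differences were not tested.

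**Figure D3:**
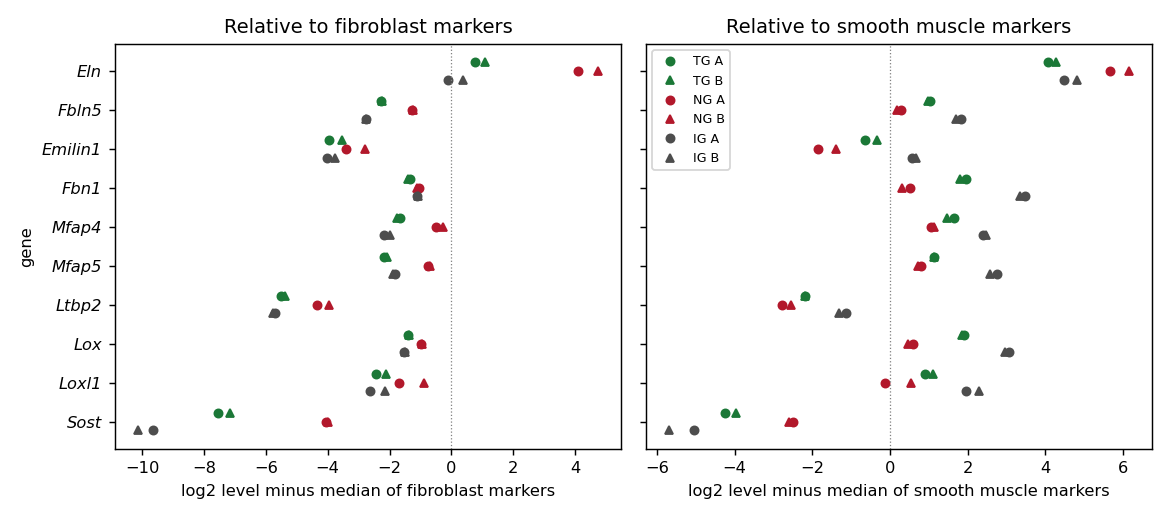
Log2 level of each gene minus the median log2 level of 8 fibroblast markers (left) or 8 smooth muscle markers (right), in each library; groups run from TG at the top to IG at the bottom of each row, with circles for library A and triangles for library B. For Eln and Sost, NG lies to the right of the other groups in both panels, while for the remaining genes NG lies to the left in the right panel.

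Other cell types that make or border on elastic tissue were checked in the same way. Of 6 endothelial markers 5 were called higher in NG than in IG, and of 5 arterial endothelial markers 4, with Gja5, a connexin gene of arteries, at 269 ± 16.3 in NG and 23.2 ± 3.30 in IG, and Efnb2 not called. Of 5 pericyte markers 4 were called higher, with a median of 0.81. Among 7 osteoblast and osteocyte markers 3 were called higher (Bglap, Ibsp and Phex), and the osteocyte genes Dmp1 and Mepe, at 32.4 ± 4.98 and 5.93 ± 0.137 in NG and 20.3 ± 4.12 and 2.90 ± 2.46 in IG, were not. Sp7 and Fgf23 were not called either, and Fgf23 had no read in NG. Of the 7 markers, 5 had a log2 fold change above 0 and 2 below it, the lowest at -1.28. Their summed level was 210 to 243 in TG, 654 to 695 in NG and 309.7 to 310.4 in IG.

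Some markers outside the vessel wall also went with NG, and others did not. All 4 adipocyte markers were called higher in NG than in IG, with a median log2 fold change of 5.15 and a summed level of 41.8 to 44.5 in TG, 4948 to 5146 in NG and 72.8 to 84.7 in IG. Of 6 skeletal muscle markers 5 were called higher (median 2.92), with sums of 11299 to 11422 in TG, 75409 to 79941 in NG and 8161 to 8501 in IG. Of 5 heart muscle markers 3 were called higher, and 2 lay below 0 without a call, the lowest at -0.71. Their sums were 197 to 208 in TG, 976 to 1007 in NG and 166 to 208 in IG. Of 5 chondrocyte markers 1 was called higher and 1 lower. Lung epithelial markers were near 0, with sums of 13.7 to 14.8 in TG, 12.1 to 12.6 in NG and 17.4 to 22.5 in IG, and Sftpa1 had no read in TG or NG. Kidney markers summed to at most 15.3 in any library. All 7 neuronal markers were called lower in NG than in IG, with a median of -0.68. The part of these cell types in the levels of the elastic fibre genes was not tested.

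**Figure D4:**
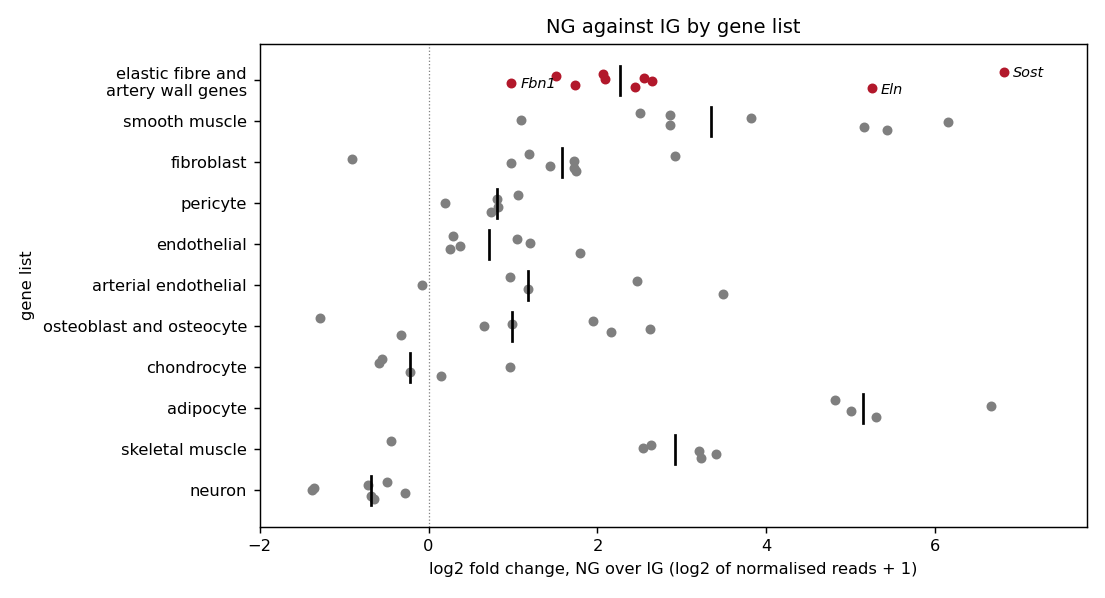
Log2 fold change of NG over IG for the 10 elastic fibre and artery wall genes (red) and for marker lists of other cell types (grey), with a black bar at each median. The 10 genes run from 0.98 to 6.81, their median of 2.27 lies between those of the fibroblast list at 1.58 and the smooth muscle list at 3.34, and neuronal markers lie below 0.

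The rest of the pathway was followed in 38 further genes, read beside the share called among all genes. In NG against IG 18 were called higher and 6 lower, beside 19.7% higher and 20.4% lower of all genes. In TG against NG 3 were called higher and 26 lower, beside 22.2% higher and 23.1% lower of all genes. In TG against IG 16 were called lower and none higher, also none at an unadjusted p under 0.05 and none in the authors' deposited table, beside 7.18% lower and 4.16% higher of all genes. A GC and length correction called 22 lower and 1 higher. The 16 calls rest on few libraries, and none of them held in each of the fits with 1 library left out. The median log2 fold changes of the 38 were 0.49, -0.92 and -0.41 in the 3 comparisons.

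Of 10 further structural genes, 7 were called higher in NG than in IG and 2 lower. Fbln2, a fibulin gene, averaged 296 ± 15.6 in TG, 1806 ± 167 in NG and 536 ± 34.9 in IG. Mfap2, which encodes a microfibril glycoprotein related to Mfap5, changed by 1.54 on the log2 scale in NG over IG and by -0.88 in TG over IG, and Ltbp1 by 1.60 in NG over IG. Fbln1 and Emilin2, relatives of Fbln5 and Emilin1, were lower in NG, both at -0.51. Efemp2, the fibulin-4 gene needed for cross-linking of elastin, was higher in NG by 1.05. The fibrillin gene of development, Fbn2, was higher by 0.51.

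Among the other lysyl oxidases, Loxl2 and Loxl3 were called higher in NG than in IG, at 1.10 and 0.67, Loxl4 at -0.77 was not called, and Atp7a, the pump that supplies copper to these enzymes, was lower at -0.95. Of the 4 ADAMTS-like genes that bind fibrillin, Adamts10 was higher at 1.52, Thsd4 and Adamtsl2 were lower at -0.59 and -0.54, and Adamtsl4 was not called. In TG against IG, Loxl2, Loxl3, Thsd4 and Adamtsl4 were called lower, at -0.58, -0.59, -0.56 and -0.54.

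TGF-beta is held in the matrix through fibrillin and its binding proteins. Of 6 ligand and receptor genes 3 were called higher in NG than in IG and none lower, also none at an unadjusted p under 0.05 or in the authors' deposited table. Tgfb1 and Tgfb3 changed by 1.14 and 0.91, and Tgfbr2 by 0.25. In TG against NG 5 of the 6 were called lower, and in TG against IG 3 were (Tgfb3, Tgfbr2 and Tgfbr3).

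Genes of elastin-degrading enzymes were called higher in NG in 4 of 6 cases. Elane, the neutrophil elastase, averaged 42.2 ± 9.66 in TG, 623 ± 25.2 in NG and 83.6 ± 3.22 in IG, and Mmp9, a gelatinase, 172 ± 10.6 in TG, 1312 ± 104 in NG and 367 ± 31.2 in IG. Ctsk changed by 0.69 and Mmp2 by 0.50. Ctss at -0.22 and Mmp12, which had 7 reads or fewer in any library, were not called between NG and IG. In TG against IG, Mmp2, Mmp9, Elane and Ctsk were called lower, Mmp2 at -1.34.

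Around sclerostin, Dkk2, another secreted Wnt antagonist, was called higher in NG and averaged 17.1 ± 6.48 in TG, 190.5 ± 28.9 in NG and 21.5 ± 2.48 in IG. The receptor gene Lrp4, which anchors sclerostin, was lower in NG than in IG at -0.48. The co-receptor genes Lrp5 and Lrp6 (0.49 and -0.03) and the Wnt target Axin2 (0.19) were not called. Sostdc1, the closest relative of Sost, averaged 181 ± 17.7 in TG, 352 ± 7.49 in NG and 391 ± 4.66 in IG. It was not called between NG and IG and was lower in TG than in IG (log2 fold change -1.11).

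The genes nearest to Eln in pattern, by distance of the centred log2 levels over the 6 libraries among 13720 genes with a mean of at least 50, were Ear1, Myh11, Glycam1, Acta2 and Plin1. Myh11, the myosin heavy chain of smooth muscle, averaged 51.4 ± 11.2 in TG, 1901 ± 38.4 in NG and 43.1 ± 2.98 in IG. Plin1 coats fat droplets, and Ear1, a ribonuclease gene with close paralogs that can share its reads, averaged 4.12 ± 0.993 in TG, 204 ± 11.2 in NG and 3.87 ± 1.09 in IG. The genes nearest to Sost were Retn, Cidec, Mylk4, Cnn1 and Lrrc17. Retn and Cidec are genes of fat cells, and Cnn1, the calponin of smooth muscle, averaged 54.2 ± 7.25 in TG, 1550 ± 211 in NG and 22.8 ± 13.7 in IG. Pearson's r over the 6 libraries, which form 3 groups, was 0.990 to 0.997 for the neighbours of Eln and 0.980 to 0.997 for those of Sost. Distances were larger for Sost, at 0.692 to 1.54, than for Eln, at 0.584 to 0.878. The pattern searched for is the high level in NG by which the set was chosen. All of these neighbours but Acta2 reached the mean of 50 only through NG. The likeness of the neighbours, Acta2 among them, is a description and no support.

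The 2 libraries of NG differed most for GC-rich members, though not for all of them. Sost, at 57.2% GC, differed by -0.05 there. Ltbp2, at 58.5% GC, differed by -0.005 in TG and -0.17 in IG. Sost, with 8 reads or fewer in each library of TG and IG, was left out of the correlations over members. In NG, B exceeded A on the log2 scale by 0.70 for Loxl1, 0.55 for Eln and 0.52 for Emilin1, whose longest transcripts have GC contents of 61.0%, 58.8% and 61.1%. For Lox, at 43.9% GC, and Fbln5, at 46.9%, the difference was -0.07 for both. Over the 9 members other than Sost, Pearson's r between GC content and this difference was 0.69 in TG, 0.88 in NG and 0.65 in IG, and over 13652 to 13667 genes it was 0.34 in TG, 0.59 in NG and 0.56 in IG. Between groups, GC content was correlated with the log2 fold change in the same way. Over 13669 genes, r was 0.01 for NG against IG, -0.02 for TG against NG and -0.03 for TG against IG. Over the 9 members other than Sost it was 0.32, -0.32 and 0.26 in the same order. The points share their libraries, and these correlations are descriptions.

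**Figure D5:**
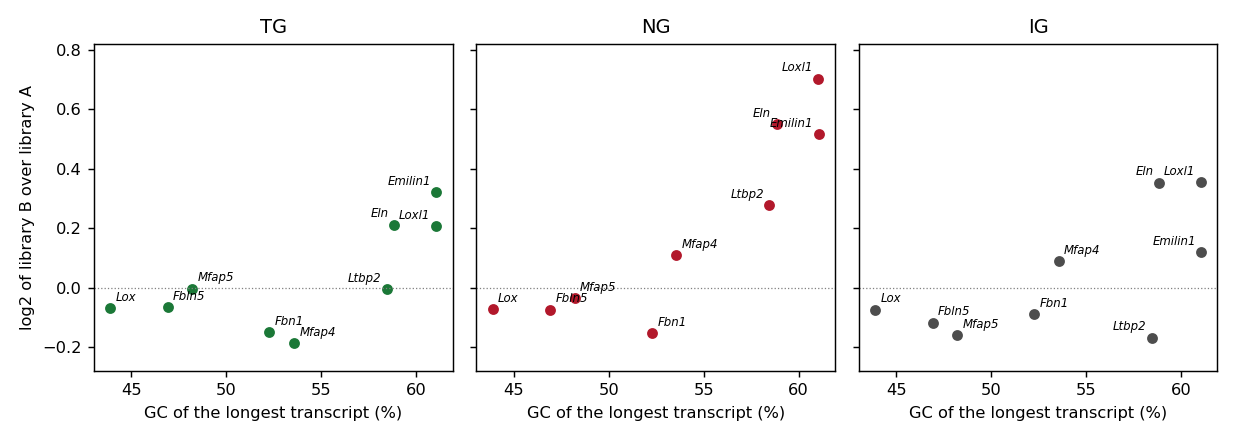
Log2 ratio of library B to library A for 9 of the genes, all but Sost, against the GC content of their longest transcript (%), in TG, NG and IG. In NG the 4 genes with the highest GC content, Loxl1, Emilin1, Eln and Ltbp2, lie highest.

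Some members overlap other genes, and the kit used does not mark strand. Mapk7 overlaps Mfap4 by 89 bases and had 469 to 695 reads per library. Gm9913 within Fbn1 and D030025P21Rik at Ltbp2 had 4 reads or fewer in any library. Antisense genes also overlap Eln and Lox, by 282 and 1207 bases, and were not analysed here.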

How the data were processed

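RNA of 6 mouse spinal cord samples was extracted with Trizol and made into libraries with a TruSeq kit from Illumina, per the labels' protocols. Bowtie2 2.0.6, HTSeq 0.6.1 and mm10 are named in the submitters' processing notes, while the annotation and the settings for counting are not given. Deposited by the authors were 3 tables, 1 per pair of groups. Per the file headers they hold a read count signal per group, the log2 ratio of the groups, and its p-value before and after adjustment. The count signal is the authors' mean over 2 libraries of reads divided by a size factor. Each group stands in 2 tables with different factors, and the pair of means was solved for whole reads per library. This held for 100% of 35275 genes (tolerance 0.001 reads). The columns carry no sample numbers.

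Size factors of the 6 libraries were taken by the median of ratios. limma 3.58.1 (R 4.3.3, variance trend) was fitted genome-wide on log2 of normalised reads plus 1, for the 24511 genes with a read, with 3 groups in 1 fit. Tests were two-sided, with Benjamini-Hochberg adjustment and a threshold of 0.05. A fold change on this scale understates low genes. The fit was also run on simulated counts with 1 spread for all genes and no GC effect. Those differ from these libraries, so nothing about the calls is read from that run. Libraries of 1 group differed beyond counting noise (chi-square per gene 5.40 to 17.3). Symbols, positions and exon lengths come from GENCODE M21 (mm10), with a symbol for 34490 IDs. The members, the further gene lists and the tests were chosen with earlier results of these data known. Named genes are all members and the pattern neighbours of Eln and Sost. Up to 3 called genes per pathway list were named by size of change, with further pathway genes from the fixed lists. Markers were named as the 2 per list with the highest level. Cnn1 and Myh11, both pattern neighbours, were set beside Eln after their values were seen. Other markers (Gja5, Pdgfra, Efnb2, Bglap, Ibsp, Phex, Dmp1, Mepe, Sp7, Fgf23, Sftpa1) were also named after their values were seen.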

Additional observations from a re-analysis of the deposited data

How the results depend on the processing

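The direction of each member's difference in NG against IG and in TG against NG was the same under every alternative run: upper quartile or total read scaling, pseudocounts of 0.5 and 5, a mean of at least 10 normalised reads, no variance trend, only the 4 libraries compared, the authors' deposited test, each library left out, and a GC and length correction chosen after seeing the data. The set was chosen by the high Eln and Sost in NG, and the runs share the same libraries, so nothing is read from that sameness. In TG against IG, Eln ran from -0.32 to 0.03 with 1 library left out and was above 0 only without IG B (0.0297). The counts with 1 library left out ran from 6252 to 7566 genes (9818 with all 6) in NG against IG, and from 0 to 1012 genes (2779 with all 6) in TG against IG, where the 0 is the fit without TG B, in which limma had 2250 genes higher and 2555 lower at an unadjusted p under 0.05. Pathway genes called ran from 15 to 23 in NG against IG and from 0 to 9 in TG against IG (17 to 21 lower at an unadjusted p), and members called in TG against IG from 0 to 3. Without the variance trend 1318 genes, 5 pathway genes and 4 members (Fbn1, Mfap5, Lox and Sost) were called in TG against IG. GC and length correction gave 5718 genes there, 3463 higher and 2255 lower, and total read scaling 683 higher and 2114 lower, against 1020 higher and 1759 lower as reported. The call of Sost was lost with a pseudocount of 5 (0.86), with only the 4 libraries compared, in the authors' deposited test and in each of the 6 fits with 1 library left out (limma adjusted p = 0.094 to 0.18). Loxl1 passed under 5 of these settings and in the authors' deposited test. Ltbp2 passed with a mean of at least 10 normalised reads and with the GC and length correction (limma adjusted p = 0.043 and 0.024). Members called in TG against IG, 7 as reported, were 8 with upper quartile or total read scaling. They were 9 with a mean of at least 10 normalised reads or the GC and length correction. With each arm left with 1 library, that library is assumed to vary like the other groups. No paired analysis was possible because the deposited columns carry no replicate numbers, and A and B were ordered by depth alone. The 4 reads of Sost in IG limit its fold change.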
